A study of Mus musculus with 6 samples.

Results

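This report covers the genes of the matrix metalloproteinases (MMPs), the ADAM and ADAMTS proteinases, the ADAMTS-like proteins and the tissue inhibitors of metalloproteinases (TIMPs) in RNA-seq of mouse embryonic fibroblasts (MEFs). Members were chosen by gene symbol alone, and 69 of the 17092 genes in the table matched, namely 21 MMP, 4 TIMP, 20 ADAM, 19 ADAMTS and 5 ADAMTS-like genes. The MEFs, connective tissue cells grown from embryos, came from WT mice or from mice with a global knockout of *Aff3ir-ORF2* (*Aff3ir-ORF2*-/-), a reading frame of a gene nested within *Aff3*, and there were 3 libraries of each genotype. The knockout was made by injecting Cas9 mRNA and guide RNAs into fertilised eggs, and founders were bred to WT mice before heterozygotes were intercrossed. MEFs were grown in medium with serum, no treatment is named in the labels, and neither genotype carried another stated allele. It is not stated whether the libraries came from separate embryos or cultures, so p-values measure the spread between these libraries, which may be technical.

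MMPs, ADAMs and ADAMTS enzymes are zinc-dependent proteinases that are made with a propeptide, which is removed, often by furin-like convertases, when the enzyme becomes active. MMPs cut collagens and other matrix proteins, ADAMs are membrane proteins of which many shed the outer parts of other membrane proteins, and ADAMTS enzymes are secreted and cut proteoglycans and procollagens, among others. TIMPs bind the active site and hold these enzymes in check, and fibroblasts are a main source of both enzymes and inhibitors in connective tissue. ADAMTS-like proteins share the matrix-binding parts of ADAMTS enzymes but have no proteinase part.

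The total count per library was 17435133 to 17726034 in WT against 18209421 to 18252330 in *Aff3ir-ORF2*-/- MEFs. The fibroblast label was checked against 12 fibroblast markers, all of which were tested. Their summed level was 28344 to 28420 CPM (counts scaled to equal library sizes, per 1000000 counts) in WT and 24739 to 30854 CPM in *Aff3ir-ORF2*-/- libraries. Past both thresholds defined below, 2 were higher and 0 lower. With the adjusted p alone 3 were higher (*Fn1*, *Lum* and *Pdgfrb*) and 3 lower (*Col1a1*, *Col1a2* and *Vim*). Macrophage markers separated the genotypes. All 15 were higher in *Aff3ir-ORF2*-/- MEFs, with a summed level of 20.1 to 23.8 CPM in WT and 1334, 1845 and 2276 CPM in *Aff3ir-ORF2*-/- replicates 1, 2 and 3, while *C1qa*, *C1qb* and *Fcgr1* were at 0 counts in every WT library. Of 10 neutrophil markers, 6 were in the table and 1, *S100a8*, was tested and higher. Their summed level was 0.284 to 0.696 CPM in WT and 1.65 to 2.51 CPM in *Aff3ir-ORF2*-/- libraries, and *Ly6g* and *Ngp* had at most 1 count in any library. *Csf3r* was at 0 counts in every WT library against 9, 13 and 21 in *Aff3ir-ORF2*-/- libraries, and *Camp* at 1, 0 and 0 against 0, 2 and 4. *Cxcr2* was slightly lower, at 5, 4 and 4 counts in WT against 3, 4 and 3 in *Aff3ir-ORF2*-/- libraries. Endothelial markers had 3 higher and 1 lower of 5 tested, cartilage and bone markers 1 higher and 2 lower of 4, and the 1 epithelial marker tested, *Krt18*, did not pass. In bulk RNA, fewer cells of a type and less RNA per cell cannot be told apart.

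Of the 69 genes, 49 had enough counts to be tested. A gene was called where the adjusted p was under 0.05 and the change at least 1.5-fold in edgeR's quasi-likelihood test, fitted and adjusted over all 13075 genes tested. By this rule 9 members (18.4%) were higher in *Aff3ir-ORF2*-/- MEFs and 5 (10.2%) were lower, where the share among all tested genes was 14.2% higher and 7.27% lower. The members' shares thus lay near those of all genes. A further 17 of the 49 members passed the adjusted p with a change under 1.5-fold, 11 of them higher and 6 lower. Among all 13075 tested genes 4620 did so. The median log2 fold change was 0.35 over the 49 members and 0.01 over all tested genes. The families differed in make-up. Among the MMPs 3 of 16 tested genes were higher and 0 lower, among the TIMPs 2 of 3 higher and 0 lower, among the ADAMs 1 of 13 higher and 2 lower, among the ADAMTS genes 1 of 13 higher and 3 lower, and among the ADAMTS-like genes 2 of 4 higher and 0 lower. Whether the families differed from each other was not tested.

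**Figure D1:**
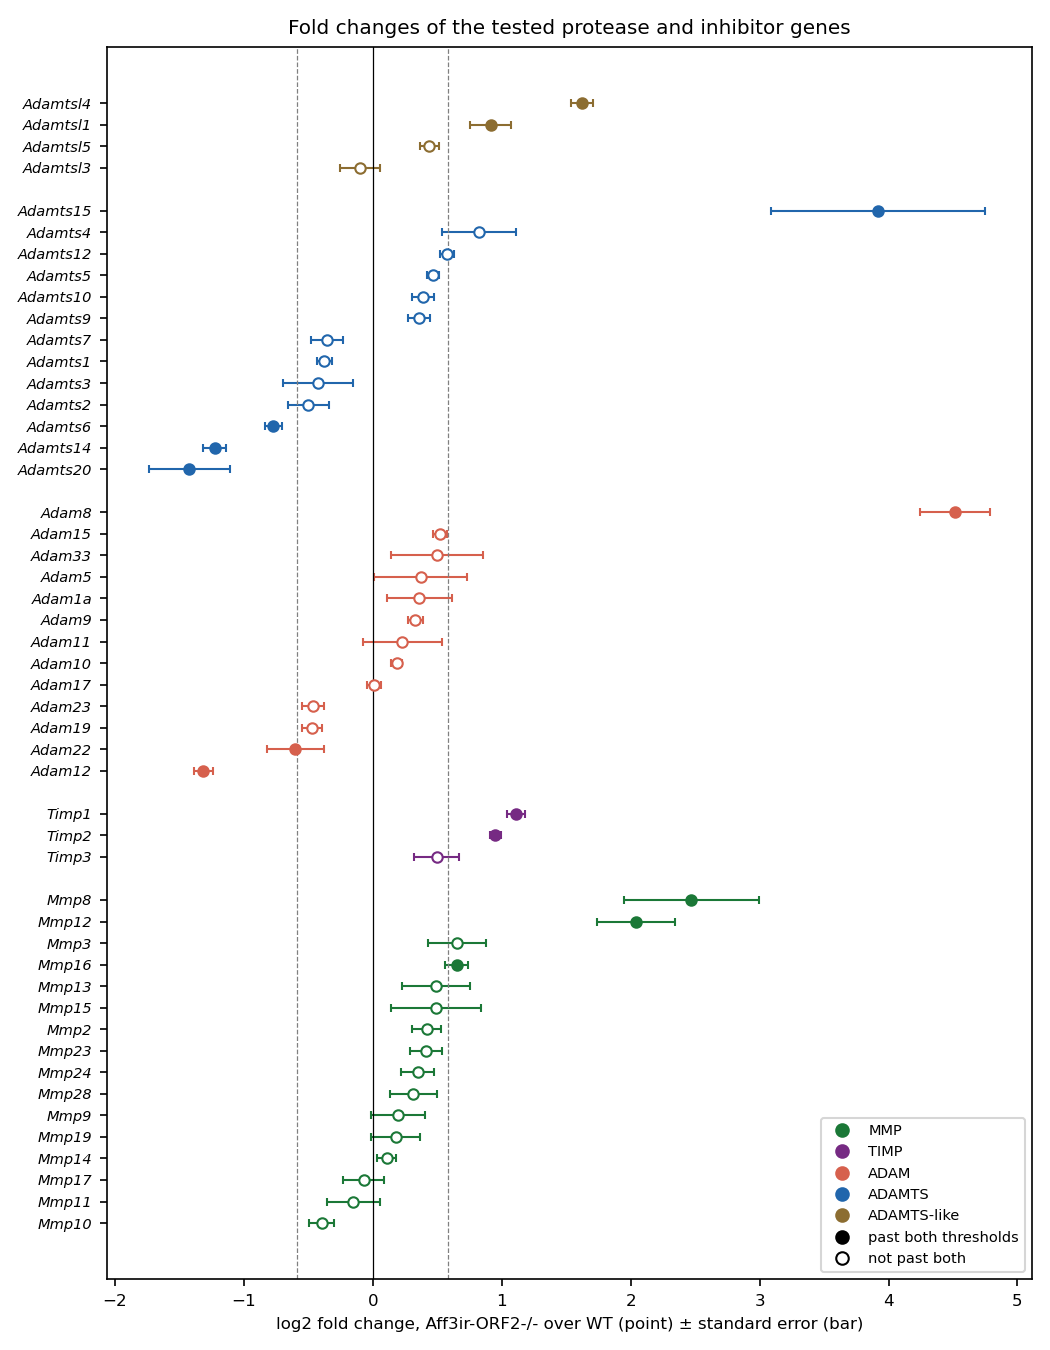
Log2 fold change of *Aff3ir-ORF2*-/- over WT MEFs (x axis) for the 49 tested genes by family, with the standard error as bars. Filled points mark the 14 genes past both thresholds and dashed lines the 1.5-fold change. *Adam8* and *Adamts15* lie farthest to the right and *Adamts20*, *Adam12* and *Adamts14* farthest to the left.

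The inhibitors had the highest summed CPM of the 5 families in both genotypes, and *Timp1* and *Timp2* rose, each to about 2 times the WT level. *Timp2* (gene ID 21858), which binds MMP14 at the cell surface in the complex that activates pro-MMP2, had 14086, 14175 and 14081 reads in the 3 WT libraries, in the order of their replicate numbers as in all such lists here, against 28814, 28553 and 29026 in the *Aff3ir-ORF2*-/- libraries. The libraries of a genotype were almost alike and the genotypes lay far apart. Its level went from 810 ± 6.24 to 1565 ± 28.6 CPM (SD, n = 3), which is 1.93-fold, with a log2 fold change of 0.95 (SE, the standard error, 0.04, adjusted p = 6.48e-07 in edgeR's quasi-likelihood test).

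*Timp1* (gene ID 21857), a soluble inhibitor known to be induced by inflammatory signals, had 3962, 4006 and 3936 counts in WT against 9318, 8137 and 9674 in *Aff3ir-ORF2*-/- MEFs. It rose from 228 ± 2.26 to 492 ± 48.4 CPM (SD, n = 3), with a log2 fold change of 1.11 (SE 0.07, adjusted p = 2.43e-06, edgeR). *Timp3* (gene ID 21859), the inhibitor that is bound to the matrix and also inhibits ADAM17 and the aggrecanases, had 12398, 13049 and 13547 counts in WT against 19576, 24016 and 14460 in *Aff3ir-ORF2*-/- MEFs. Every *Aff3ir-ORF2*-/- library was above every WT library, but replicate 3 was close to WT, and the difference did not pass (log2 fold change 0.49, SE 0.18, adjusted p = 0.0554, edgeR). Without that library it was 0.66 (adjusted p = 1.12e-04), and over all alternatives the adjusted p lay between 1.12e-04 and 0.194. *Timp4* was at 10, 6 and 8 counts in WT against 10, 9 and 5 in *Aff3ir-ORF2*-/- MEFs and was not tested. By whole gene spans, RefSeq's gene table of GRCm38.p6 lists *Timp1*, *Timp2*, *Timp3* and *Timp4* as overlapping *Syn1*, *Cep295nl*, *Syn3* and *Syn2*. Overlap of exons was not examined. It is not stated whether the counting used strand, so reads from any shared stretch could be given to either gene. The deposited counts of all TIMP genes were whole in every library.

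**Figure D2:**
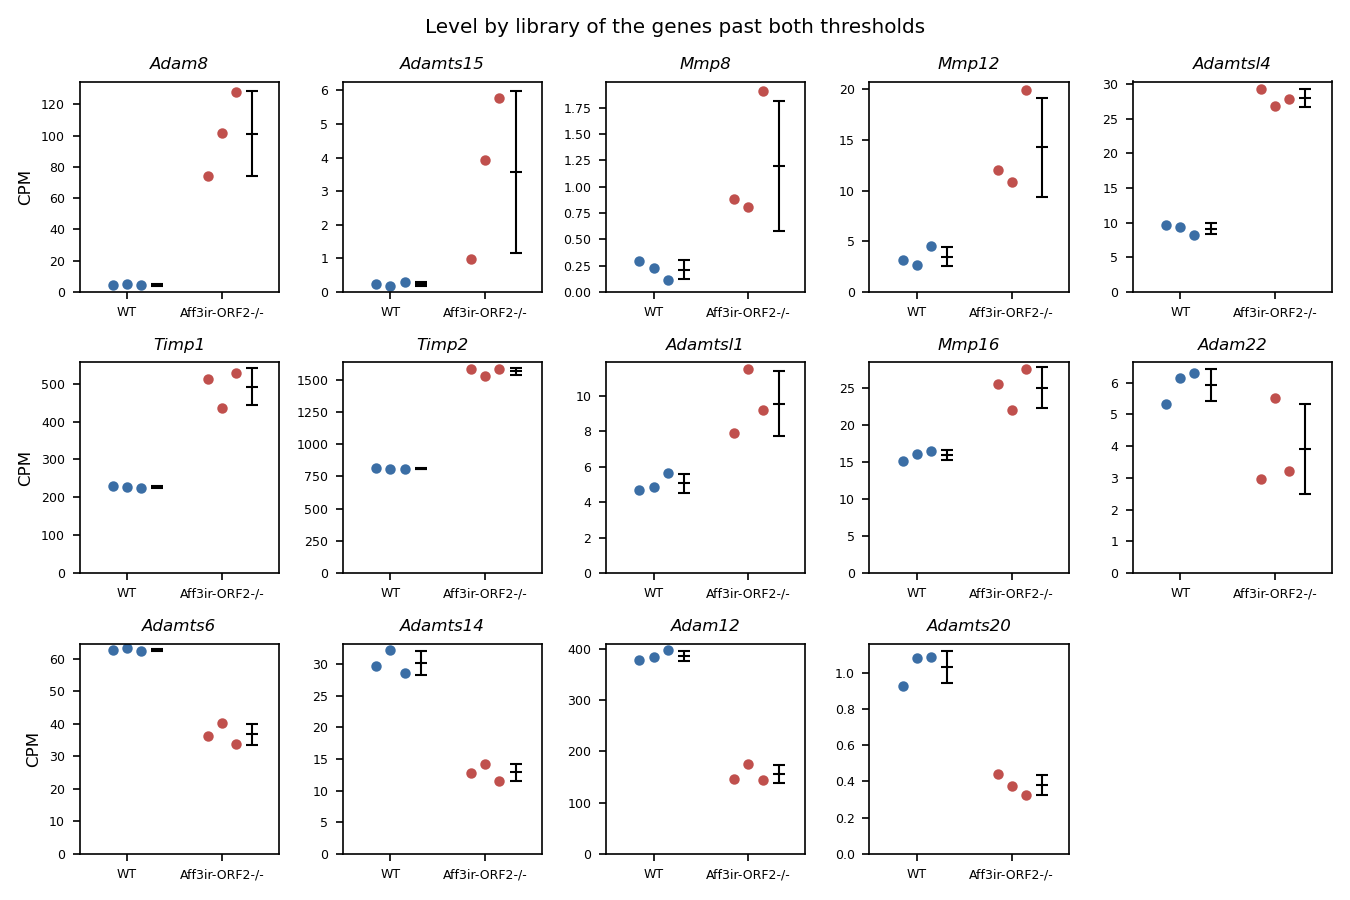
Level in CPM (y axis, from 0, own scale in each panel) of the 14 genes past both thresholds in 3 WT (blue) and 3 *Aff3ir-ORF2*-/- libraries (red, replicates 1 to 3 from left to right), with mean and SD in black. The genotypes overlap only for *Adam22*.

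Among the MMPs, *Mmp8*, *Mmp12* and *Mmp16* rose, and the 3 with the most counts, *Mmp14*, *Mmp2* and *Mmp3*, did not pass both thresholds. *Mmp14*, the membrane-type enzyme that cuts fibrillar collagen and activates pro-MMP2, had the most counts of the family, with 13557, 13278 and 12958 in WT against 14109, 17174 and 13976 in *Aff3ir-ORF2*-/- MEFs. Its log2 fold change of 0.11 (SE 0.07) was within the replicate error (adjusted p = 0.235, edgeR). *Mmp2*, a gelatinase that MMP14 and TIMP2 help to activate, had 5181, 5260 and 5150 counts in WT against 5974, 8614 and 7410 in *Aff3ir-ORF2*-/- MEFs. It was higher by 0.42 on the log2 scale (SE 0.11, adjusted p = 0.0180, edgeR), under a 1.5-fold change. The adjusted p of *Mmp2* was over the threshold when any library but *Aff3ir-ORF2*-/- replicate 1 was left out, from 0.0501 without WT replicate 2 to 0.0559 without *Aff3ir-ORF2*-/- replicate 3, as also 0.0542 without *Aff3ir-ORF2*-/- replicate 2, 0.0540 without WT replicate 1 and 0.0556 without WT replicate 3. So of *Mmp14*, *Timp2* and *Mmp2*, only *Timp2* passed both thresholds.

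*Mmp9*, the other gelatinase, had 173, 211 and 197 counts in WT against 159, 250 and 294 in *Aff3ir-ORF2*-/- MEFs, with overlapping genotypes (log2 fold change 0.20, SE 0.21, adjusted p = 0.449, edgeR). Its value was -0.0051 without *Aff3ir-ORF2*-/- replicate 3 and 0.40 (adjusted p = 0.0205) without replicate 1. Of the stromelysins, which cut proteoglycans and activate other MMPs, *Mmp3* had 2707, 2766 and 2747 counts in WT against 3078, 5814 and 4757 in *Aff3ir-ORF2*-/- MEFs. The *Aff3ir-ORF2*-/- libraries were all above WT but spread widely, and the log2 fold change of 0.65 (SE 0.22) did not pass (adjusted p = 0.0537, edgeR). It passed without *Aff3ir-ORF2*-/- replicate 1 (0.86, adjusted p = 6.83e-05), with DESeq2 (adjusted p = 0.0180) and with limma voom (adjusted p = 0.00360), and the adjusted p over the alternatives lay between 6.83e-05 and 0.184. *Mmp10* was lower by a small amount, at 227, 251 and 235 counts in WT against 210, 188 and 174 in *Aff3ir-ORF2*-/- MEFs (log2 fold change -0.39, SE 0.10, adjusted p = 0.00656, edgeR). *Mmp11*, with a log2 fold change of -0.15 (SE 0.20), did not pass, but was at -0.43 (adjusted p = 1.21e-05) without *Aff3ir-ORF2*-/- replicate 2.

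*Mmp12* and *Mmp8* rose from low levels. *Mmp12* (gene ID 17381), an elastase typical of macrophages, was counted 55, 47 and 79 times in WT against 219, 202 and 365 times in *Aff3ir-ORF2*-/- MEFs. This was 3.46 ± 0.954 against 14.3 ± 4.92 CPM (SD, n = 3), with a log2 fold change of 2.04 (SE 0.30, adjusted p = 0.00122, edgeR), or 4.11-fold. *Mmp8* (gene ID 17394), a collagenase typical of neutrophils, had 5, 4 and 2 counts in WT against 16, 15 and 35 in *Aff3ir-ORF2*-/- MEFs, with a log2 fold change of 2.47 (SE 0.52, adjusted p = 0.00288, edgeR). Both were highest in *Aff3ir-ORF2*-/- replicate 3, the library with the highest summed macrophage markers. Replicates 1 and 2 differed by few counts for *Mmp12* (219 and 202) and for *Mmp8* (16 and 15), with macrophage sums of 1334 and 1845 CPM. The part of macrophage or neutrophil marker expression in the rise of *Mmp12* and *Mmp8* was not tested. The collagenase *Mmp13* had 682, 739 and 649 counts in WT against 718, 1451 and 911 in *Aff3ir-ORF2*-/- MEFs, a log2 fold change of 0.49 (SE 0.26, adjusted p = 0.166, edgeR) that was 0.68 (adjusted p = 0.0322) without *Aff3ir-ORF2*-/- replicate 1. *Mmp1a* had at most 1 count in a library and *Mmp1b* 2 to 15 counts, and neither was tested.

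The membrane-bound enzymes held 1 call. *Mmp16* (gene ID 17389), like MMP14 a membrane-type activator of pro-MMP2, had 262, 283 and 289 counts in WT against 464, 411 and 506 in *Aff3ir-ORF2*-/- MEFs, a log2 fold change of 0.65 (SE 0.09, adjusted p = 2.37e-04, edgeR). *Mmp23* (0.41, adjusted p = 0.0190) and *Mmp24* (0.35, adjusted p = 0.0373) passed the adjusted p with smaller changes in the same test. The adjusted p of *Mmp23* was 0.0592 and 0.0774 without WT replicate 2 or 3, and that of *Mmp24* 0.140 and 0.0913 without these, 0.0781 and 0.0859 without *Aff3ir-ORF2*-/- replicate 1 or 3, and 0.118 with DESeq2. The rest did not pass, namely *Mmp15* (0.49, SE 0.35), *Mmp17* (-0.07, SE 0.16) and *Mmp14* described above. *Mmp25*, an enzyme of leukocytes, was at 8, 8 and 3 counts in WT against 2, 1 and 3 in *Aff3ir-ORF2*-/- MEFs and was not tested. The other secreted enzymes *Mmp19* (0.18, SE 0.19, and -0.08 without *Aff3ir-ORF2*-/- replicate 2) and *Mmp28* (0.31, SE 0.18) did not pass.

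Many secreted MMP genes lie side by side. In RefSeq's gene table of GRCm38.p6 the order is *Mmp13*, *Mmp12*, *Mmp1b*, *Mmp3*, *Mmp1a*, *Mmp10*, *Mmp8*, *Mmp27*, *Mmp20* and *Mmp7*, of which *Mmp20* was not analysed here. Levels differed widely along the run, and 4 of its 5 tested genes had positive log2 fold changes. *Mmp12* and *Mmp8* were called higher, *Mmp10* between them was lower, and *Mmp3* and *Mmp13* did not pass. *Mmp27*, next to *Mmp8*, was at 5, 1 and 3 counts in WT against 7, 9 and 11 in *Aff3ir-ORF2*-/- MEFs and was not tested, and *Mmp7* at the end of the run had 1 count in all libraries together. RefSeq also lists the noncoding gene *Gm31751* across *Mmp8* and *Mmp27*.

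**Figure D3:**
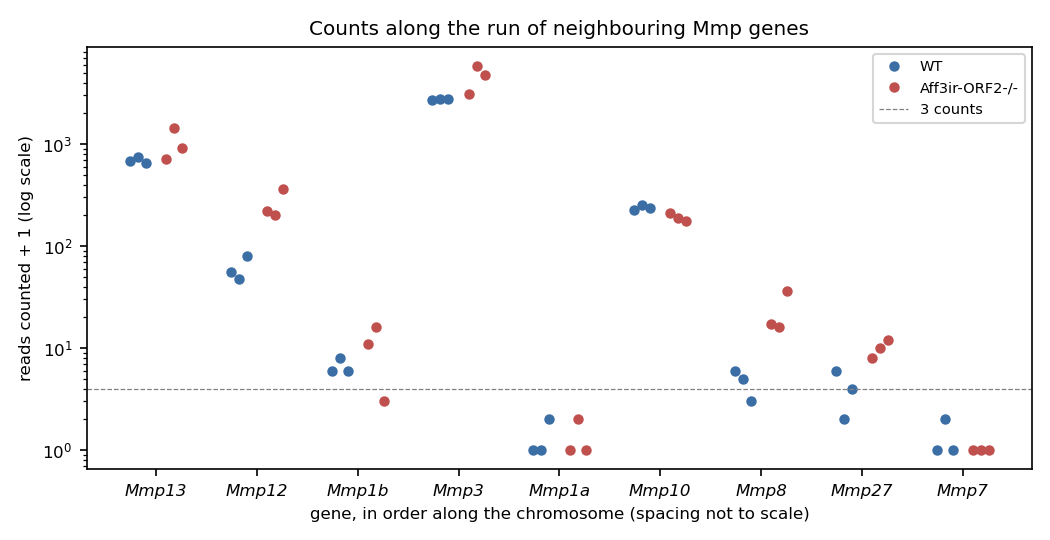
Reads counted plus 1 (y axis, log scale) in each WT (blue) and *Aff3ir-ORF2*-/- library (red) for 9 neighbouring *Mmp* genes in their order along the chromosome, not to scale. The dashed line marks 3 counts. *Mmp12* and *Mmp8* are higher in every *Aff3ir-ORF2*-/- library, *Mmp10* is lower in every one, and *Mmp1a* and *Mmp7* lie at the bottom.

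The promoters of this run share a short element. The consensus site of AP-1, the Fos and Jun factor long known to act on MMP promoters, was searched as TGACTCA, whose other strand reads TGAGTCA, in RefSeq windows of 250 bases before to 50 bases after each start site. Windows were matched for 44 of the 69 members by gene ID, and 9 of these (20.5%) held the site, against 5.95% of the 27025 genes with a window. The site was in 7 of 9 genes of the run in the count table (*Mmp13*, *Mmp12*, *Mmp1b*, *Mmp3*, *Mmp1a*, *Mmp10* and *Mmp7*), and elsewhere among the members in *Adam19* and *Adam1b* only, with 0 of 4 TIMP, 0 of 10 ADAMTS and 0 of 4 ADAMTS-like genes. In *Mmp7*, *Mmp1a* and *Mmp1b*, which were not tested for a change, the site lies at positions -63, -73 and -93 from the start site. The last 100 bases before the start site are shown for the 4 tested genes of the run that hold it. They are given on the plus strand of GRCm38.p6 by RefSeq, with the site in capitals.
Mmp13 (chr9:7272414-7272513): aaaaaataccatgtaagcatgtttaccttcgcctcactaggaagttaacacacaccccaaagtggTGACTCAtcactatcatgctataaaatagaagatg
Mmp12 (chr9:7347274-7347373): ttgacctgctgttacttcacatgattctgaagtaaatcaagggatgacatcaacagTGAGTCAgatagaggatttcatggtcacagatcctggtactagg
Mmp3 (chr9:7445722-7445821): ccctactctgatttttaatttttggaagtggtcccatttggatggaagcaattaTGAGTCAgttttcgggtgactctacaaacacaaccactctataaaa
Mmp10 (chr9:7502242-7502341): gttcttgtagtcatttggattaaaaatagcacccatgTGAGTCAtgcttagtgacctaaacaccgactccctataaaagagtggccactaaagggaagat
The site begins 35, 44, 46 and 63 bases before the start site of *Mmp13*, *Mmp12*, *Mmp3* and *Mmp10*. In the same order their log2 fold changes were 0.49, 2.04, 0.65 and -0.39. Of these *Mmp12* was called higher, *Mmp10* was lower by under 1.5-fold, and *Mmp13* and *Mmp3* did not pass. The part of the element in these changes was not tested. The site of *Adam19*, which was lower, lies farther upstream, at position -131 from its start site. Of the other called MMPs, the window of *Mmp8* held no match and none was matched for *Mmp16*. A match is a description of letters and not of binding.

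Among the ADAMs, *Adam8* changed by far the most. *Adam8* (gene ID 11501), a sheddase known from leukocytes and macrophages, was counted 75, 84 and 72 times in WT against 1345, 1896 and 2350 times in *Aff3ir-ORF2*-/- MEFs. It rose from 4.42 ± 0.333 to 101 ± 27.1 CPM (SD, n = 3), with a log2 fold change of 4.52 (SE 0.27, adjusted p = 5.57e-05, edgeR), or 22.9-fold. Like the summed macrophage markers, *Adam8* was lowest in *Aff3ir-ORF2*-/- replicate 1 and highest in replicate 3, and the part of macrophage marker expression in its rise was not tested. Over the alternatives its log2 fold change stayed between 4.31 and 4.69.

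*Adam12* (gene ID 11489), an ADAM of mesenchymal cells and of muscle and bone formation that is known to cleave insulin-like growth factor binding proteins, fell. It had 6512, 6775 and 6951 counts in WT against 2663, 3271 and 2659 in *Aff3ir-ORF2*-/- MEFs, or 387 ± 10.2 against 156 ± 17.3 CPM (SD, n = 3). This 2.49-fold fall, a log2 fold change of -1.31, passed (SE 0.07, adjusted p = 1.97e-06, edgeR). The related *Adam19*, a sheddase of neuregulins, was lower by less, at 5544, 5734 and 5869 counts in WT against 4391, 3844 and 4781 in *Aff3ir-ORF2*-/- MEFs (log2 fold change -0.47, SE 0.08, adjusted p = 8.20e-04, edgeR).

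The widely expressed sheddases moved less. *Adam10*, the enzyme that cuts Notch receptors and N-cadherin, had 3096, 3327 and 3334 counts in WT against 3925, 3956 and 3842 in *Aff3ir-ORF2*-/- MEFs, a log2 fold change of 0.19 (SE 0.04, adjusted p = 0.00425, edgeR). *Adam17*, which releases tumour necrosis factor and ligands of the epidermal growth factor receptor, had 1378, 1420 and 1422 counts in WT against 1366, 1592 and 1523 in *Aff3ir-ORF2*-/- MEFs. It differed by 0.0082 on the log2 scale (SE 0.06, adjusted p = 0.907, edgeR) and did not pass, and its sign changed with the library left out. *Adam9*, the ADAM with the most counts at 9037 to 9705 in WT against 11614 to 13062 in *Aff3ir-ORF2*-/- MEFs, was higher by 0.33 (adjusted p = 0.00109) and *Adam15* by 0.52 (adjusted p = 3.17e-05) in the same test. *Adam33* had 268, 266 and 199 counts in WT against 338, 544 and 212 in *Aff3ir-ORF2*-/- MEFs and did not pass (0.50, SE 0.36), with 0.77 (adjusted p = 0.0329) without *Aff3ir-ORF2*-/- replicate 3.

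Of the ADAMs of the nervous system that lack an active proteinase, *Adam22*, a receptor for LGI proteins at synapses, had 92, 108 and 110 counts in WT against 54, 103 and 59 in *Aff3ir-ORF2*-/- MEFs. The genotypes overlapped through *Aff3ir-ORF2*-/- replicate 2, and the log2 fold change of -0.60 (SE 0.22, adjusted p = 0.0451, edgeR) held only narrowly. The adjusted p of *Adam22* was 0.0782, 0.121 and 0.130 without WT replicate 1, 2 or 3, 0.131 and 0.119 without *Aff3ir-ORF2*-/- replicate 1 or 3, and 0.0620 with scaling to total counts, and without replicate 2 the log2 fold change was -0.94 (adjusted p = 1.37e-04). *Adam23* was lower by a change under 1.5-fold (-0.46, SE 0.09, adjusted p = 0.00148, edgeR), and *Adam11* had 15 to 29 counts in any library and did not pass. Of the ADAMs known mainly from testis, *Adam1a* and *Adam5* were tested and did not pass, and *Adam3*, *Adam4*, *Adam21*, *Adam30* and *Adam32* had at most 10 counts in any library. *Adam1a* and *Adam1b* are paralogues, and in *Aff3ir-ORF2*-/- replicate 2 both had counts that were not whole before rounding, as estimated counts have where reads are split between genes, so their separate values are uncertain.

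The ADAMTS genes moved in both directions. The procollagen N-proteinases, which trim the amino ends of fibrillar procollagens, all had negative log2 fold changes and 1 of 3 was called. *Adamts14* (gene ID 237360) fell from 512, 566 and 499 counts in WT to 234, 265 and 212 in *Aff3ir-ORF2*-/- MEFs, or from 30.2 ± 1.86 to 12.9 ± 1.34 CPM (SD, n = 3), with a log2 fold change of -1.23 (SE 0.09, adjusted p = 5.02e-06, edgeR). *Adamts2*, the main enzyme of this kind in skin, had 1535, 1533 and 1519 counts in WT against 920, 1468 and 1039 in *Aff3ir-ORF2*-/- MEFs. *Aff3ir-ORF2*-/- replicate 2 was close to WT, and the log2 fold change was -0.50 (SE 0.16, adjusted p = 0.0382, edgeR), under 1.5-fold. Without *Aff3ir-ORF2*-/- replicate 2 the value for *Adamts2* was -0.72 (adjusted p = 8.52e-09), while its adjusted p was 0.0515 without *Aff3ir-ORF2*-/- replicate 1, 0.108 without replicate 3, and 0.0967, 0.0843 and 0.0838 without WT replicates 1, 2 and 3. *Adamts3* had 16 to 31 counts in any library and did not pass (-0.43, SE 0.27).

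Of the enzymes that cut aggrecan, versican and related proteoglycans, 6 were tested. *Adamts15* (gene ID 235130) rose from 4, 3 and 5 counts in WT to 18, 73 and 106 in *Aff3ir-ORF2*-/- MEFs. All *Aff3ir-ORF2*-/- libraries lay above WT but differed widely among themselves, with a log2 fold change of 3.92 (SE 0.83, adjusted p = 0.00698, edgeR), and without replicate 2 *Adamts15* no longer passed (3.84, adjusted p = 0.0517). *Adamts20* (gene ID 223838), a versicanase of skin development, fell from 16, 19 and 19 counts to 8, 7 and 6, a log2 fold change of -1.42 (SE 0.31, adjusted p = 0.00354, edgeR).

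The 2 enzymes known as the main aggrecanases were both higher on average. *Adamts5* had 1177, 1177 and 1181 counts in WT against 1621, 1763 and 1772 in *Aff3ir-ORF2*-/- MEFs, a log2 fold change of 0.47 (SE 0.05, adjusted p = 3.42e-05, edgeR) that was under 1.5-fold. *Adamts4* had 282, 288 and 286 counts in WT against 418, 789 and 399 in *Aff3ir-ORF2*-/- MEFs, a log2 fold change of 0.83 (SE 0.29, adjusted p = 0.0524, edgeR). *Aff3ir-ORF2*-/- replicate 2 set much of its size and of its spread. Without it the value for *Adamts4* was 0.44 (adjusted p = 8.13e-05), without replicate 1 0.97 (adjusted p = 0.0430) and without replicate 3 0.99 (adjusted p = 0.0316), and over the alternatives the adjusted p lay between 8.13e-05 and 0.115. The deposited counts of *Adamts4*, *Mmp19*, *Mmp28* and *Furin* were not whole in any library, and those of *Adamts2* and *Pcsk7* not in 5 of the 6, so the levels of these genes are uncertain. *Adamts1*, the versicanase with the most counts of the family, was lower, at 2589, 2555 and 2578 counts in WT against 1956, 2313 and 2007 in *Aff3ir-ORF2*-/- MEFs (log2 fold change -0.38, SE 0.06, adjusted p = 4.33e-04, edgeR), and *Adamts9* was higher by 0.35 (adjusted p = 0.00573), both under 1.5-fold.

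The enzymes tied to fibrillin microfibrils went in opposite directions. *Adamts6* (gene ID 108154) fell from 1080, 1112 and 1092 counts in WT to 659, 749 and 621 in *Aff3ir-ORF2*-/- MEFs, a log2 fold change of -0.77 (SE 0.07, adjusted p = 1.25e-05, edgeR). Its close relative *Adamts10* had 496, 446 and 450 counts in WT against 631, 720 and 578 in *Aff3ir-ORF2*-/- MEFs, higher by 0.39 (SE 0.09, adjusted p = 0.00339, edgeR) but under 1.5-fold. The pair that cuts cartilage oligomeric matrix protein also differed in sign. *Adamts12* was higher by 0.57 (SE 0.05, adjusted p = 1.97e-05), at 994 to 1060 counts in WT against 1547 to 1666 in *Aff3ir-ORF2*-/- MEFs, just under the 1.5-fold threshold, and *Adamts7* was lower by a log2 fold change of -0.35 (SE 0.13, adjusted p = 0.0402) in the same test. The adjusted p of *Adamts7* was 0.112 and 0.127 without WT replicate 1 or 2, 0.0879 and 0.0973 without *Aff3ir-ORF2*-/- replicate 1 or 3, and 0.0689 with scaling to total counts. *Adamts8*, a further proteoglycan-cutting enzyme, *Adamts13*, the enzyme of von Willebrand factor, *Adamts16*, *Adamts17*, *Adamts18* and *Adamts19* had at most 9 counts in any library.

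Both called ADAMTS-like genes were higher. *Adamtsl4* (gene ID 229595), which binds fibrillin and is known from the suspension of the eye lens, rose from 167, 166 and 143 counts in WT to 534, 500 and 511 in *Aff3ir-ORF2*-/- MEFs, or from 9.10 ± 0.805 to 28.0 ± 1.25 CPM (SD, n = 3). This 3.07-fold rise, 1.62 on the log2 scale, passed (SE 0.08, adjusted p = 1.15e-06, edgeR). *Adamtsl1* (gene ID 77739) had 81, 85 and 99 counts in WT against 144, 215 and 169 in *Aff3ir-ORF2*-/- MEFs, a log2 fold change of 0.91 (SE 0.16, adjusted p = 8.87e-04, edgeR). *Adamtsl5*, the member with the most counts, had 632 to 719 in WT against 863 to 1010 in *Aff3ir-ORF2*-/- MEFs and was higher by 0.44 (adjusted p = 7.73e-04), under 1.5-fold. *Adamtsl3* did not pass (-0.10, SE 0.15, adjusted p = 0.602), although without *Aff3ir-ORF2*-/- replicate 2 it was at -0.32 (adjusted p = 0.00256). *Adamtsl2* was at 2 to 7 counts and not tested.

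Other genes of the system were read from a hand-written list of 26 activators, inhibitors and partners, of which 24 were in the table and 20 tested. Of these 4 were higher and 3 lower past both thresholds, and the median log2 fold change was 0.08. By the same rule 14.2% of all 13075 tested genes were higher and 7.27% lower. Whether this short list differed from all tested genes was not tested. Convertases cut off the propeptides. *Pcsk7* fell from 2302, 2350 and 2263 counts in WT to 1244, 1156 and 1269 in *Aff3ir-ORF2*-/- MEFs (log2 fold change -0.99, SE 0.05, adjusted p = 1.15e-06, edgeR). *Furin*, the best known of them, was lower by less, at 5523, 5478 and 5339 counts in WT against 4913, 4320 and 4642 in *Aff3ir-ORF2*-/- MEFs (-0.31, SE 0.06, adjusted p = 0.00119, edgeR), and *Pcsk5* and *Pcsk6* did not pass. Without *Aff3ir-ORF2*-/- replicate 2, *Pcsk5* was at -0.27 (adjusted p = 0.00820).

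*Reck*, a membrane-anchored inhibitor of MMPs, rose from 354, 359 and 344 counts in WT to 493, 680 and 528 in *Aff3ir-ORF2*-/- MEFs (0.61, SE 0.11, adjusted p = 0.00124, edgeR). The iRhom *Rhbdf2*, which brings ADAM17 to the cell surface, was at 110, 129 and 116 counts in WT against 322, 399 and 344 in *Aff3ir-ORF2*-/- MEFs (1.51, SE 0.10, adjusted p = 4.16e-06, edgeR), and *Frmd8*, which stabilises the iRhom and ADAM17 complex, was higher by 0.61 (adjusted p = 1.81e-05). The other iRhom, *Rhbdf1*, did not pass (0.06, SE 0.05). *Rhbdf2* and *Frmd8* thus rose, while *Adam17* did not pass. The part of macrophage marker expression in the rise of *Rhbdf2* and *Frmd8* was not tested.

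*Tspan15*, a tetraspanin that directs ADAM10 towards N-cadherin, fell from 61, 55 and 65 counts to 28, 25 and 35 (-1.11, SE 0.20, adjusted p = 9.90e-04, edgeR). *Pcolce2*, an enhancer of procollagen C-proteinase, fell from 752, 731 and 778 counts to 274, 176 and 222 (-1.83, SE 0.14, adjusted p = 1.91e-05, edgeR). The other enhancer on the list, *Pcolce*, named after its values were seen, had more counts and did not pass (0.07, SE 0.09, adjusted p = 0.537, edgeR). It had 6112, 6133 and 6051 counts in WT against 6646, 7851 and 5806 in *Aff3ir-ORF2*-/- MEFs. *Lcn2*, the partner of MMP9 in neutrophils, was the remaining call and is named after its values were seen. It had 2, 7 and 2 counts in WT against 12, 26 and 24 in *Aff3ir-ORF2*-/- MEFs.

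Between genes, levels were compared as CPM per kilobase of the longest GENCODE M21 transcript. On this scale 18 of the 69 members reached 10 in WT. The highest in WT were *Timp1* (255.1 to 260.2 in the 3 libraries), *Mmp14* (229.1 to 242.8), *Timp2* (217.3 to 220.3), *Timp3* (152.3 to 164.2), *Adam9* (129.6 to 137.4), *Mmp2* (95.8 to 97.6) and *Mmp3* (87.2 to 87.4), with no overlap between neighbours in this order. In *Aff3ir-ORF2*-/- MEFs *Timp1* (494.6 to 597.0) and *Timp2* (413.2 to 426.6) both stood above *Mmp14* (235.2 to 284.7). *Timp3* (166.9 to 273.0) overlapped *Mmp14*, and *Mmp2* (106.6 to 150.2) overlapped *Mmp3* (93.8 to 173.3). The order depends on the transcript taken. With the median transcript length of a gene, *Mmp14* came first in WT at a mean of 977, and *Adam12* (371), *Timp3* (369), *Timp2* (366), *Mmp2* (296) and *Timp1* (265) followed. *Adam8* went from a mean of 1.20 in WT to 27.6 in *Aff3ir-ORF2*-/- MEFs on the longest transcript.

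**Figure D4:**
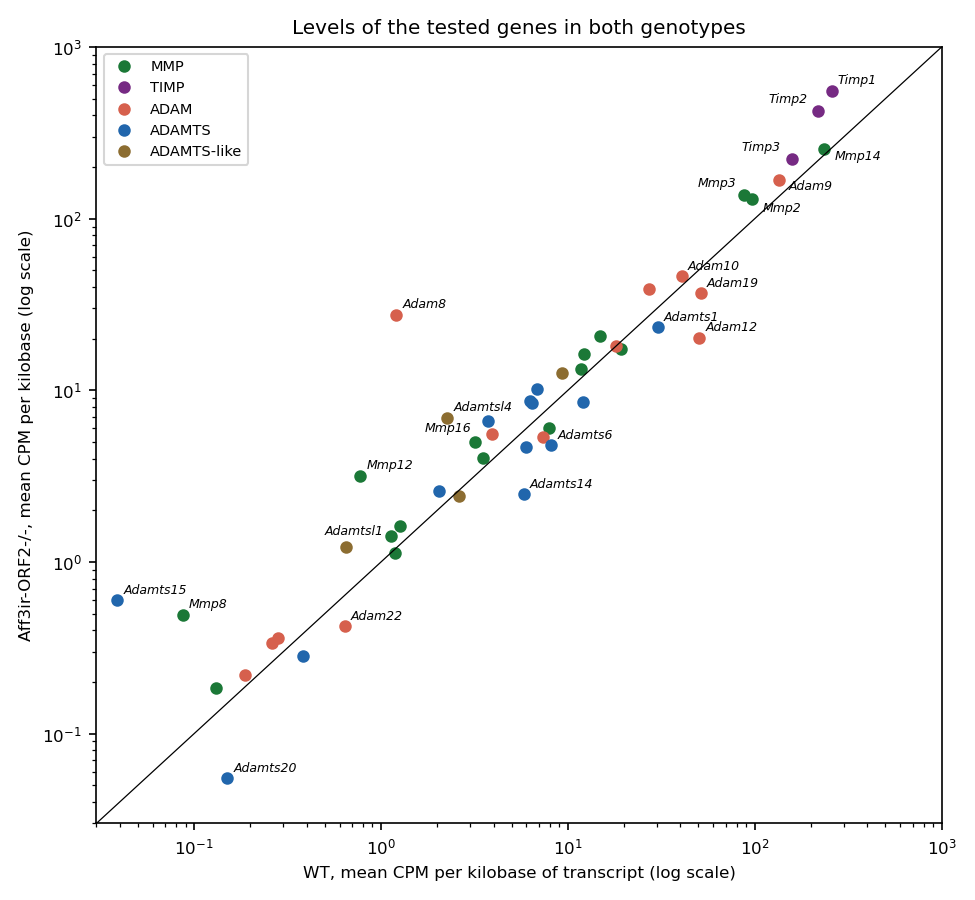
Mean level of the 49 tested genes in WT (x axis) and *Aff3ir-ORF2*-/- MEFs (y axis), in CPM per kilobase of the longest transcript on log scales, coloured by family. The line marks equal levels. *Timp1*, *Timp2* and *Mmp14* stand at the top and *Adam8* far above the line.

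Summed over each family, the inhibitors gained more counts than the enzymes. The summed CPM of the TIMPs was 1766, 1777 and 1807 in WT against 3169, 3259 and 2897 in *Aff3ir-ORF2*-/- replicates 1, 2 and 3, a ratio of the means of 1.74. For the MMPs it was 1451, 1419 and 1392 in WT against 1482, 1994 and 1663 in *Aff3ir-ORF2*-/- MEFs, a ratio of 1.21, with replicate 1 close to WT. The ADAM sum overlapped between the genotypes (1669 to 1740 CPM in WT, 1645 to 1736 in *Aff3ir-ORF2*-/- MEFs), and this sum holds *Adam8* and *Adam9*, which were higher, as well as *Adam12* and *Adam19*, which were lower. The ADAMTS sum was 546 to 554 CPM in WT against 488 to 573 in *Aff3ir-ORF2*-/- MEFs, also with overlap. The ADAMTS-like sum was 68.2 to 74.7 CPM in WT against 99.0 to 114 in *Aff3ir-ORF2*-/- MEFs. The TIMP sum over the MMP sum within a library was 1.22, 1.25 and 1.30 in WT against 2.14, 1.63 and 1.74 in *Aff3ir-ORF2*-/- MEFs. Per kilobase of the longest transcript it was 1.25 to 1.31 against 1.64 to 2.39. The ratio depends on the transcript taken and was not formed with the median length. On that length *Mmp14* (977) stood above *Timp3* (369), *Timp2* (366) and *Timp1* (265) in WT means. These sums were formed after the values of the members were known and carry no test.

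**Figure D5:**
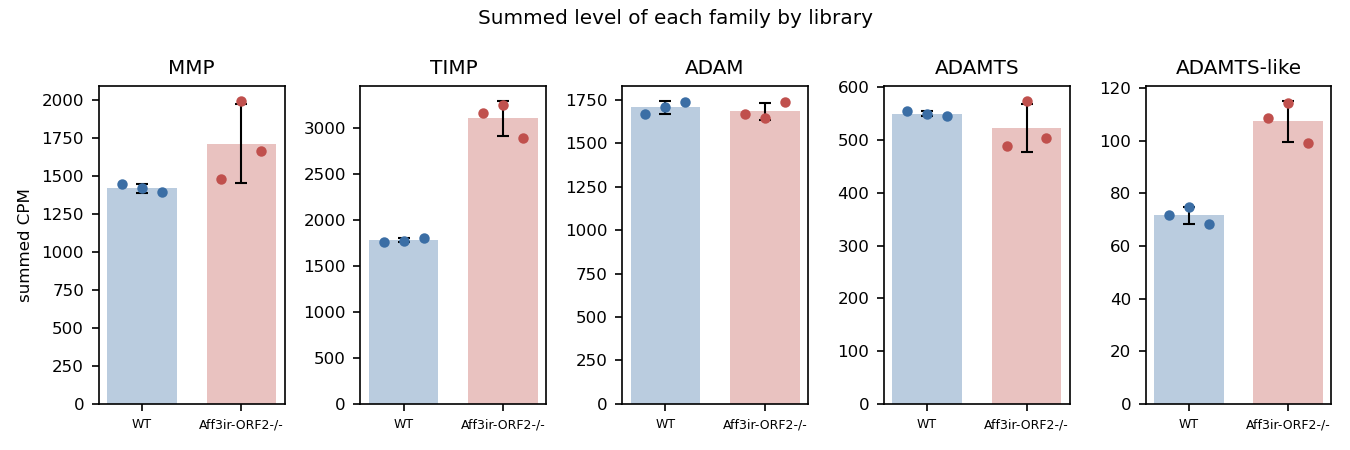
Summed CPM (y axis, from 0, own scale in each panel) of each family in 3 WT (blue) and 3 *Aff3ir-ORF2*-/- libraries (red). Bars are means, error bars the SD and points the libraries. The TIMP and ADAMTS-like sums and, narrowly, the MMP sums lie apart between genotypes, while the ADAM and ADAMTS sums overlap.

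The *Aff3ir-ORF2*-/- libraries spread more than the WT libraries. For the 42 tested members at a mean log2 CPM of 1 or more, the median coefficient of variation was 3.96% in WT and 12.3% in *Aff3ir-ORF2*-/- MEFs. It was larger in *Aff3ir-ORF2*-/- MEFs for 38 of the 42. The wider spread was not particular to the members. Over all tested genes, edgeR's common biological coefficient of variation, which leaves out counting error, was 0.0185 in WT and 0.0998 in *Aff3ir-ORF2*-/- MEFs. *Aff3ir-ORF2*-/- replicate 2 was the highest of its genotype for 27 of the 49 tested members (55.1%), and for 36.5% of all tested genes. By the same count it was the highest for 10 of 12 fibroblast markers (83.3%) and for 4 of 15 macrophage markers (26.7%). *Adamts4*, *Adamts2*, *Mmp11*, *Mmp19* and *Adam22*, named after their values were seen, are examples in which it stood above the other 2 libraries of its genotype while those lay close together. Of the 20 members not tested, 9 were at 3 counts or fewer in every library, which is the detection floor used here and covers counting error only: *Adam1b*, *Adam21*, *Adam28*, *Adam30*, *Adamts13*, *Adamts18*, *Adamts19*, *Mmp1a* and *Mmp7*.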

How the data were processed

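The members and gene lists were chosen with earlier results of these data known. The authors had paired-end DNBSEQ reads filtered with SOAPnuke and deposited, as estimated counts, reads by gene and library that were not normalized. The aligner and counter are not given in the sources used here, and the submitters' processing notes name the build mm8, so no gene coordinates are given apart from RefSeq promoter windows of GRCm38.p6. Estimated counts were rounded (10.6% to 11.3% of values were not whole).

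Genes were filtered with filterByExpr (minimum count 10, minimum total 15), scaled by TMM and tested with edgeR 4.0.16 (R 4.3.3) by quasi-likelihood with robust estimation, without covariates, with Benjamini-Hochberg adjustment over all 13075 genes. CPM are counts per 1000000 of TMM-scaled library size. The standard error is the log2 fold change over the square root of F. The script was tested on simulated data. To look for copied libraries, counts of each pair were compared by a chi-square test over genes with 20 or more counts. The statistic per degree of freedom was 1.38 to 1.71 within WT and 5.56 to 18.9 within *Aff3ir-ORF2*-/- MEFs, so none was treated as a copy.

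Named genes were every member past both thresholds, the 3 with the most counts in each family, every TIMP, a set of textbook representatives of each role, and up to 6 partners past both thresholds by adjusted p, with *Reck* and *Furin*; other members are named to account for every gene or where a count needs them. Marker lists of fibroblasts, macrophages, neutrophils, endothelium, epithelium, and cartilage and bone were used. Alternatives were other scalings, filters and thresholds, DESeq2 1.42.0, limma 3.58.1 voom with genotype weights, a block for the replicate number, each library left out in turn and, added after seeing the data, edgeR without robust estimation, other settings for the family sums, and the inhibitor to MMP ratio per kilobase. The targeted gene was not analysed here. No protein table was used here, so the planned search for the active-site motif was not run. Figures were drawn with Python 3.11.15 and matplotlib 3.10.9.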

Additional observations from a re-analysis of the deposited data

How the results depend on the processing

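With 3 libraries a genotype and the wider spread of the *Aff3ir-ORF2*-/- libraries, genes near the thresholds moved between settings, and 20 members with few counts were not tested unless the filter was left out. Of the 14 called members, *Adam8*, *Adam12*, *Adamts6*, *Adamts14*, *Adamts20*, *Adamtsl1*, *Adamtsl4*, *Mmp8*, *Mmp12*, *Mmp16*, *Timp1* and *Timp2* kept their direction and an adjusted p under 0.05 in every setting in which they were tested, and *Adam22* and *Adamts15* did not. The log2 fold change of *Mmp16* fell to 0.57 with a library left out, under the 1.5-fold threshold. So did those of the partners *Reck* (0.46) and *Frmd8* (0.57). The count of 9 higher and 5 lower members became 20 and 11 with the adjusted p alone, and 6 and 3 with a 2-fold threshold. Over all 13075 tested genes the adjusted p alone gave 3831 higher and 3591 lower. By family, the adjusted p alone gave 6 higher and 1 lower MMP (3 and 0), 4 and 4 ADAM (1 and 2), 5 and 6 ADAMTS genes (1 and 3), and 7 higher and 6 lower partners (4 and 3). A 2-fold threshold gave 1 lower ADAM, 1 higher ADAMTS-like gene, 1 higher TIMP and 2 higher partners. It also dropped *Mmp16* (0.65), *Adamts6* (-0.77) and the partner *Pcsk7* (-0.99). Scaling to total counts gave 1 lower ADAM and 2 higher ADAMTS genes, and DESeq2, limma voom, no robust estimation and the unadjusted p each gave 2 higher ADAMTS genes. Leaving out 1 library at a time gave 2 to 5 higher MMPs, 1 to 2 higher and 1 to 2 lower ADAMs and 1 to 2 higher ADAMTS genes. The sign of *Adam17* changed with no filter (-0.0067) and without a library (-0.0346 to 0.0573), and without a library also for *Adamtsl3* (-0.32 to 0.0067), *Mmp9* (-0.0051 to 0.40), *Mmp17* (-0.26 to 0.0299), *Mmp19* (-0.0804 to 0.29), *Pcsk5* (-0.27 to 0.0861) and *Adam11* (-0.0868 to 0.40), none of which passed with all libraries. The cause was not tested. With the replicate number as a block the counts were 9 higher and 5 lower. Same-numbered libraries correlated by 0.0145 to 0.0424 in their deviations from the genotype means, each best with its own number but under 0.1. Pairs with different numbers lay between -0.0369 and 0.0046. Correlations this small cannot show whether same-numbered libraries shared any handling, which is not stated.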
